A study of Mus musculus with 14 samples.

Results

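Cyclin-dependent kinase (CDK) inhibitors are the brakes of the cell cycle. The 7 mouse genes described here make up its 2 families: the Cip/Kip genes Cdkn1a, Cdkn1b and Cdkn1c, which encode p21, p27 and p57, and the Ink4 genes Cdkn2a, Cdkn2b, Cdkn2c and Cdkn2d, which encode p16Ink4a, p15Ink4b, p18Ink4c and p19Ink4d. Their probe sets were found by name in the annotation of the array. The family was picked for description with earlier results of these data known. Of the 7, 6 had a probe set of their own among the 19155 genes tested. The only probe set for Cdkn1a also covered a second gene, 4930567H12Rik, so its value cannot be given to Cdkn1a alone and it is called the probe set shared with Cdkn1a.

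The study profiled multipotent progenitors (MPPs) of the bone marrow from old and young wild-type C57BL/6 mice, to ask how ageing changes each population. MPP3 are myeloid-biased and MPP4 lymphoid-biased progenitors. Both were double-sorted by flow cytometry as lineage-negative cells with cKit and Sca-1 on their surface, MPP3 by the absence of Flk2 and CD150 with CD48 present, and MPP4 by the presence of Flk2. The sources differ on MPP3: the series' design text has CD150 absent, as given here, and the study's methods print it as present. There were 14 arrays of 20000 cells each: 3 of old MPP3, 3 of young MPP3, 3 of old MPP4 and 5 of young MPP4. Old mice were 24 months of age and young mice 8 to 10 weeks, and no treatment or engineered allele was involved. The labels call the arrays biological replicates, but do not say how many mice were pooled for each.

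The deposited value places a probe set by rank: the share of the ranked probe sets that read as high or higher on the same array is taken, and its natural logarithm with the sign turned is the value. The median value of an array was 0.662 to 0.675, and a value of 1.96 was matched or exceeded by 14.1% of probe sets. Differences are therefore given as differences of this value and not as fold changes. No detection call came with the values, and the level of 1 gene cannot be set against that of another. In sorted bulk samples, a smaller share of cells with a transcript and less transcript per cell cannot be told apart.

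CDK inhibitors bind CDKs, alone or with their cyclins, and hold cells in G1. The Ink4 proteins bind CDK4 and CDK6 and keep cyclin D from activating them, whereas the Cip/Kip proteins bind a wider range of complexes, among them cyclin E with CDK2. With the kinases held back, the retinoblastoma proteins remain unphosphorylated and E2F factors stay silent. In the mouse blood system, p57 and p27 are known for keeping hematopoietic stem cells quiescent, p18 for limiting their self-renewal divisions, p21 as a p53 target after DNA damage, and p16Ink4a as a marker of senescence in many aged tissues.

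Among the gate genes, Flt3 followed the sort at both ages. Flt3, which encodes Flk2, lay between 3.29 and 3.53 in old MPP4, against 1.42 to 2.10 in old MPP3, and between 2.77 and 3.53 in young MPP4, against 2.02 to 2.20 in young MPP3. Slamf1, which encodes CD150, was at most 0.251 on any array. Cd48 lay between 2.34 and 2.48 in old MPP3, below the 2.52 to 2.70 of old MPP4. In young mice it lay between 2.50 and 2.69 in MPP3, against 2.09 to 2.62 in MPP4. Kit was at least 2.63 on every array, and Ly6a, which encodes Sca-1, was not among the genes tested. Apart from the sort, the arrays were divided into 2 sets by clustering the values of their dimmest 33.3% of probe sets. The number of sets was fixed at 2 beforehand, and the labels name no such sets. The share of all genes that separate the sets was not counted. Set 1 held 9 arrays, which were all 6 old ones, replicate 1 of young MPP3, and replicates 1 and 2 of young MPP4. Set 2 held the other 5, all young. The young arrays are also part of another deposited series and the old ones are not, so that age and origin cannot be told apart. The X-linked RNA Xist was above 1 on 4 arrays, all young (MPP3 replicate 1 and MPP4 replicates 1, 4 and 5), and Eif2s3y, on the Y chromosome, was at 0.0221 and 0.0261 on young MPP3 replicate 1 and young MPP4 replicate 1, against 0.855 to 2.06 on the other arrays.

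Across both age comparisons and both comparisons of the populations, no CDK inhibitor passed the test. In old against young MPP3, 0 of 6 inhibitors were called by limma at an adjusted p under 0.05, against 0% of 19155 genes, and 0 of 6 had an unadjusted p under 0.05, against 8.19% of genes. The groups did not overlap for 0 of 6, against 14.2% of genes. In old against young MPP4, 0 of 6 were called, against 0% of genes, and 1 of 6 (Cdkn1c) had an unadjusted p under 0.05, against 9.77%. The groups did not overlap for 0 of 6, against 7.29%. In MPP4 against MPP3 of old mice, 0 of 6 were called, against 0%, and 1 of 6 (Cdkn1b) had an unadjusted p under 0.05, against 9.83%. The groups did not overlap for 1 of 6, again Cdkn1b, against 16.6%. In MPP4 against MPP3 of young mice, 0 of 6 were called, against 0.131% of genes (25 genes), and 0 of 6 had an unadjusted p under 0.05, against 11%. The groups did not overlap for 0 of 6, against 7.47%. The probe set shared with Cdkn1a was not called in any of them either.

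**Figure D1:**
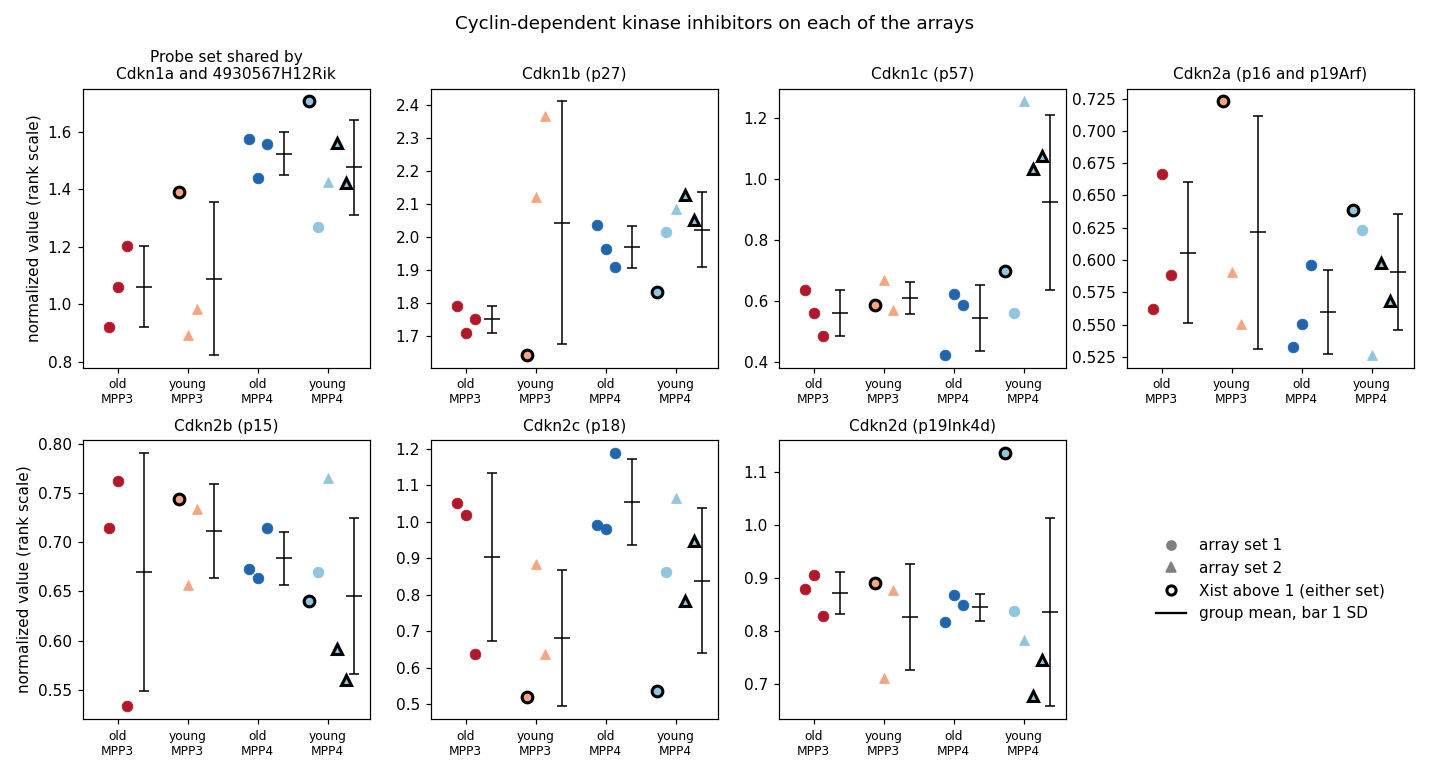
Normalized value of each CDK inhibitor (vertical axis, rank scale without unit, with its own range in each panel) on every array of old MPP3, young MPP3, old MPP4 and young MPP4. Circles are arrays of set 1, triangles arrays of set 2, black rims arrays with Xist above 1, and the bar beside each group is the mean with 1 SD; the probe set shared with Cdkn1a and Cdkn1b separate MPP4 from MPP3 in old mice, and Cdkn1c is above 1 only in young MPP4 arrays of set 2.

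Of the Cip/Kip genes, the probe set shared with Cdkn1a did not overlap between the populations in old mice and overlapped in young mice. It read 1.58, 1.44 and 1.56 on the old MPP4 arrays, against 0.920, 1.06 and 1.20 on the old MPP3 arrays. All 3 old MPP4 arrays were thus above all 3 old MPP3 arrays, as 9.03% of genes were in that direction in this comparison. The difference was 0.464 ± 0.0826 (SE, 95% interval 0.254 to 0.673, limma adjusted p = 0.259). In young mice it read 1.71, 1.27, 1.42, 1.56 and 1.42 on the MPP4 arrays, against 1.39, 0.892 and 0.984 on the MPP3 arrays. The young groups overlapped through MPP3 replicate 1 alone, which was above MPP4 replicate 2. The difference was 0.388 ± 0.136 (SE, 95% interval 0.0696 to 0.706, limma adjusted p = 0.362), and 0.539 without that MPP3 array. Within array set 1, with 2 young MPP4 arrays and 1 young MPP3 array, it was 0.0971.

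With age the same probe set differed by less than its spread. Old MPP3 averaged 1.06 ± 0.142 and young MPP3 1.09 ± 0.266 (SD, n = 3 each), a difference of -0.0278 with a 95% interval of -0.415 to 0.360. Old MPP4 averaged 1.52 ± 0.0744 (SD, n = 3) and young MPP4 1.48 ± 0.164 (SD, n = 5), a difference of 0.0481 with a 95% interval of -0.173 to 0.269. From high to low its means ran old MPP4, young MPP4, young MPP3 and old MPP3, and within each population the neighbours in age did not differ beyond their spread.

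Cdkn1b, whose product p27 inhibits cyclin E with CDK2 and is removed by the ubiquitin ligase SCF-Skp2, had the same order of populations in old mice. It read 2.03, 1.96 and 1.91 on the old MPP4 arrays, against 1.79, 1.71 and 1.75 on the old MPP3 arrays. Every old MPP4 array was above every old MPP3 array. The difference was 0.220 ± 0.0415 (SE, 95% interval 0.115 to 0.325, limma adjusted p = 0.273). The mean in old MPP4 was matched or exceeded by 13.96% of ranked probe sets, and that in old MPP3 by 17.39%. In young mice Cdkn1b read 1.83, 2.01, 2.09, 2.13 and 2.05 on the MPP4 arrays, against 1.64, 2.12 and 2.37 on the MPP3 arrays. The young MPP3 arrays held both the lowest and the highest value of all 14 arrays, and the difference between the young populations was -0.0209 ± 0.154 (SE, limma adjusted p = 0.989).

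By age, Cdkn1b averaged 1.75 ± 0.0412 in old MPP3 and 2.04 ± 0.368 in young MPP3 (SD, n = 3 each). The difference was -0.293 ± 0.187 (SE, 95% interval -0.766 to 0.180, limma adjusted p = 0.718). The single low young array was MPP3 replicate 1, in array set 1 and with Xist above 1: without it the difference was -0.494, and against it alone, within array set 1, it was 0.108. Without young MPP3 replicate 3, the highest array, the difference was -0.132. Among the young arrays, Cdkn1b ranged over 1.64 to 2.01 in set 1 and 2.05 to 2.37 in set 2. The share of all genes that separate the sets in this way was not counted. In MPP4 it averaged 1.97 ± 0.0624 in old mice (SD, n = 3) and 2.02 ± 0.114 in young mice (SD, n = 5), a difference of -0.0526 ± 0.0674 (SE, limma adjusted p = 0.838), which was 0.0465 within array set 1. Within that set, MPP4 minus MPP3 was 0.220 in old mice and 0.281 in young mice, so the young populations stood in the order of the old ones there, on 2 arrays against 1.

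Cdkn1c, an imprinted gene expressed from the maternal copy, ranged over 0.834 from the lowest to the highest of the 14 arrays. It read 0.422, 0.623 and 0.585 on the old MPP4 arrays, against 0.697, 0.559, 1.26, 1.03 and 1.07 on the young MPP4 arrays. The groups overlapped: young replicate 2 lay below old replicates 2 and 3. The difference was -0.381 ± 0.161 (SE, 95% interval -0.757 to -0.00454), with an unadjusted limma p of 0.0479 and an adjusted p of 0.508. The mean was matched or exceeded by 58.1% of ranked probe sets in old MPP4 and by 39.7% in young MPP4. The 3 young arrays above 1 were those of array set 2, and within set 1 the difference was -0.0845. Without the young arrays with Xist above 1, which include 2 of those 3, it was -0.364 (limma unadjusted p = 0.175). The young MPP3 arrays of set 2 did not share these values, at 0.669 and 0.571, beside 0.586 on the young MPP3 array of set 1.

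Old MPP3 averaged 0.561 ± 0.0766 for Cdkn1c and young MPP3 0.609 ± 0.0530 (SD, n = 3 each), a difference of -0.0482 ± 0.0515 (SE, limma adjusted p = 0.837). The age difference in MPP4 minus that in MPP3 was -0.332 ± 0.199 (SE, 95% interval -0.768 to 0.103, limma adjusted p = 0.864), so that the 2 populations were not shown to differ. MPP4 minus MPP3 was -0.0170 ± 0.0684 in old mice (SE, limma adjusted p = 0.968) and 0.315 ± 0.157 in young mice (SE, limma adjusted p = 0.532). Young MPP4 was the highest group, and the other 3 followed within their spread. Beside Cdkn1c, 11 of 11 measured stem cell marker genes had a lower mean in old than in young MPP4, at a median difference of -0.0915 (median over all genes -0.000171). Of these, 2 of 11 had an unadjusted limma p under 0.05, against 9.77% of genes, and none passed the adjustment (smallest limma adjusted p = 0.490). Their mean ranged over 1.16 to 1.31 on old MPP4 arrays and 1.22 to 1.41 on young MPP4 arrays. In MPP3, 7 of 11 of these markers had a lower mean in old mice, at a median difference of -0.191, beside -0.0482 for Cdkn1c. The part of the markers in the Cdkn1c difference was not tested.

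Of the Ink4 genes, Cdkn2a encodes 2 proteins from 2 start sites. The upstream start gives p19Arf, which stabilises p53 by binding Mdm2, and the downstream start gives p16Ink4a. The 1 probe set annotated to Cdkn2a gave a single value, so the 2 transcripts were not told apart here. Both starts are shown because the 2 transcripts begin at different sites. Each window is 250 bases before and 50 bases after the start (RefSeq, GRCm38.p6, minus strand). Capitals mark the E2F motif TTTCCCGC and the GC box GGGCGG, searched on both strands.
Cdkn2a upstream start (p19Arf), chr4:89294570-89294869: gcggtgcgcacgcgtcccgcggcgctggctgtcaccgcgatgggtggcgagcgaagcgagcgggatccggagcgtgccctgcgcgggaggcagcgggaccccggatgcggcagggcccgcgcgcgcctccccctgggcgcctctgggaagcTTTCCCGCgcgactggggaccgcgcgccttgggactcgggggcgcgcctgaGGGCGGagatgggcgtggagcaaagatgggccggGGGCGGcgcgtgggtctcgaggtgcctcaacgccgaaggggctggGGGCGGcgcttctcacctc
Cdkn2a downstream start (p16Ink4a), chr4:89282143-89282442: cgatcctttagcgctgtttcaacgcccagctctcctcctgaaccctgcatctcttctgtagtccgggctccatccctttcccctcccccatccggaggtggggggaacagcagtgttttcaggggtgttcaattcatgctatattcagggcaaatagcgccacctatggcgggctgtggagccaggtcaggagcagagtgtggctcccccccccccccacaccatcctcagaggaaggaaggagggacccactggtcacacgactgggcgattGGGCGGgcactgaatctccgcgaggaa
The starts lie 12427 bases apart. The upstream window held 45 CpG, 77% G and C, 1 E2F motif and 3 GC boxes. The downstream window held 12 CpG, 60.3% G and C, no E2F motif and 1 GC box. Over 32851 promoter windows of the same length the median was 7 CpG, 1.07% held the E2F motif and 35.7% the GC box. These matches describe the windows and are no evidence of binding.

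Cdkn2a ranged over 0.196 from the lowest to the highest of the 14 arrays. It read 0.562, 0.667 and 0.589 on the old MPP3 arrays, against 0.723, 0.591 and 0.550 on the young MPP3 arrays. The difference was -0.0156 ± 0.0572 (SE, 95% interval -0.160 to 0.129, limma adjusted p = 0.963). It read 0.532, 0.550 and 0.596 on the old MPP4 arrays, against 0.639, 0.623, 0.527, 0.598 and 0.568 on the young MPP4 arrays. The difference was -0.0313 ± 0.0305 (SE, 95% interval -0.103 to 0.0402, limma adjusted p = 0.767). Differences by age above 0.129 in MPP3 or 0.0402 in MPP4 thus lay outside the 95% intervals of this probe set. Its group means were below the median value of every array, matched or exceeded by 53.72% to 57.15% of ranked probe sets. Without a detection call, these intervals do not bound a change in the p16Ink4a or p19Arf transcript. Among the young arrays Cdkn2a was at 0.623 to 0.723 in array set 1 and at 0.527 to 0.598 in set 2, the reverse order of Cdkn1b. Here too the share of all genes that separate the sets was not counted. Within set 1 the age differences were -0.117 in MPP3, on 1 young array, and -0.0715 in MPP4.

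Cdkn2b, the neighbour of Cdkn2a on chromosome 4, encodes p15Ink4b, a target of TGF-beta signalling. It read 0.715, 0.762 and 0.533 in old MPP3, against 0.743, 0.656 and 0.733 in young MPP3, and 0.673, 0.664 and 0.714 in old MPP4, against 0.640, 0.670, 0.765, 0.592 and 0.560 in young MPP4. The 4 groups overlapped. The age differences were -0.0408 ± 0.0687 in MPP3 (SE, 95% interval -0.214 to 0.133) and 0.0381 ± 0.0460 in MPP4 (SE, 95% interval -0.0696 to 0.146), with limma adjusted p of 0.904 and 0.824. MPP4 minus MPP3 was 0.0134 in old mice and -0.0656 in young mice (limma adjusted p = 0.974 and 0.707).

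Cdkn2c, which encodes p18Ink4c, had age differences in the same direction in both populations, neither of which passed the test. It read 1.05, 1.02 and 0.638 on the old MPP3 arrays, against 0.519, 0.884 and 0.638 on the young MPP3 arrays. The difference was 0.222 ± 0.150 (SE, 95% interval -0.156 to 0.601, limma adjusted p = 0.728). It read 0.992, 0.979 and 1.19 on the old MPP4 arrays, against 0.536, 0.863, 1.07, 0.782 and 0.947 on the young MPP4 arrays. The difference was 0.214 ± 0.117 (SE, 95% interval -0.0598 to 0.489, limma adjusted p = 0.588). In both populations the groups overlapped, and the means stood in the order old MPP4, old MPP3, young MPP4 and young MPP3 with every neighbour within its spread. The 2 lowest of the 14 arrays were young MPP3 replicate 1 and young MPP4 replicate 1, the arrays with Xist and without Eif2s3y. Without all arrays with Xist the differences were 0.142 in MPP3 and 0.0887 in MPP4, and within array set 1 they were 0.384 and 0.353.

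Within array set 1, Cdkn2c was high on the arrays where genes of the G2 and M phases were high. The mean of 17 such genes, among them the mitotic kinase gene Aurka and the spindle motor gene Kif11, was at 1.97 to 2.30 on old MPP3 arrays, against 1.94 to 2.08 on young MPP3 arrays, and at 2.11 to 2.27 on old MPP4 arrays, against 1.76 to 2.11 on young MPP4 arrays. Across the 14 arrays Pearson's r between Cdkn2c and this mean was 0.599, and across the 9 arrays of set 1 it was 0.867. The 5 arrays of set 2 did not show this order. Their Cdkn2c read 1.07, 0.782 and 0.947 on young MPP4 replicates 3, 4 and 5, where the mean was 1.86, 1.91 and 1.85, and 0.884 and 0.638 on young MPP3 replicates 2 and 3, where the mean was 2.08 and 1.94. For the other inhibitors r ranged over 14 arrays from -0.542 (Cdkn1c) to 0.353 (Cdkn2b). Over the 9 arrays of set 1 their r ranged from -0.612 (Cdkn2d) to 0.460 (Cdkn2b). These correlations describe arrays that share 4 groups and 2 array sets. The share of Cdkn2c that goes with the cell cycle was not tested.

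**Figure D2:**
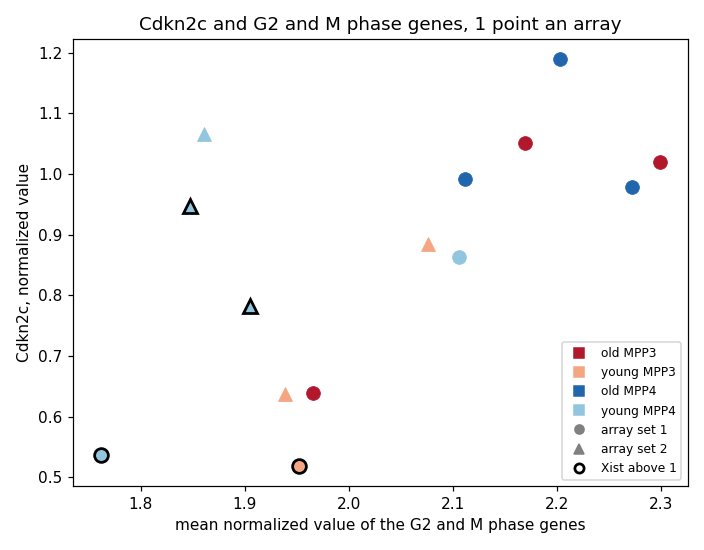
Normalized value of Cdkn2c (vertical axis) against the mean normalized value of 17 genes of the G2 and M phases (horizontal axis), with 1 point for each of the 14 arrays; colours are groups, circles array set 1, triangles array set 2 and black rims arrays with Xist above 1. The lowest values of Cdkn2c, 0.519 and 0.536, are the young replicates 1 of MPP3 and MPP4, and 3 young MPP4 arrays of set 2 have Cdkn2c at 0.782 to 1.07 with G2 and M phase means of 1.85 to 1.91.

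Cdkn2d, which encodes p19Ink4d, did not separate the groups. It read 0.880, 0.907 and 0.828 in old MPP3, against 0.892, 0.711 and 0.878 in young MPP3, and 0.817, 0.868 and 0.850 in old MPP4, against 1.14, 0.838, 0.783, 0.679 and 0.745 in young MPP4. The old arrays spanned a narrow band inside the range of the young ones. The age differences were 0.0445 ± 0.0585 in MPP3 (SE, 95% interval -0.103 to 0.192) and 0.00884 ± 0.0973 in MPP4 (SE, 95% interval -0.219 to 0.237), with limma adjusted p of 0.873 and 0.987. Young MPP4 replicate 1 gave the highest value of all 14 arrays, and among the 5 young MPP4 arrays both arrays of set 1 were above all 3 of set 2. Within array set 1 the age differences were -0.0203 in MPP3 and -0.142 in MPP4, and without the arrays with Xist they were 0.0769 and 0.0348. MPP4 minus MPP3 was -0.0266 in old mice and 0.00909 in young mice (limma adjusted p = 0.809 and 0.993).

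**Figure D3:**
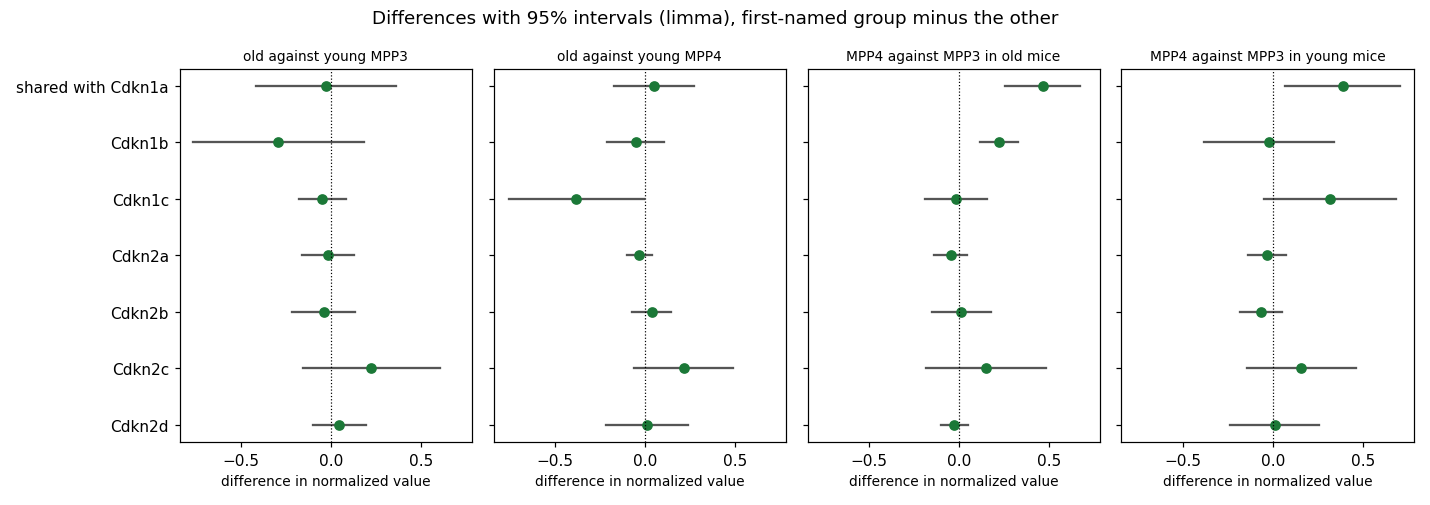
Difference in normalized value (horizontal axis, rank scale) with its 95% interval from limma for each CDK inhibitor, in old minus young MPP3, old minus young MPP4, MPP4 minus MPP3 of old mice and MPP4 minus MPP3 of young mice. The intervals of the probe set shared with Cdkn1a and of Cdkn1b in old mice (0.254 to 0.673 and 0.115 to 0.325), of the shared probe set in young mice (0.0696 to 0.706) and of Cdkn1c in old against young MPP4 (-0.757 to -0.00454) do not reach 0; none passed the adjustment over all genes.

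The remaining comparisons of the populations also fell short of the threshold. MPP4 minus MPP3 for Cdkn2a was -0.0463 in old mice and -0.0306 in young mice (limma adjusted p = 0.721 and 0.885), and for Cdkn2c 0.150 and 0.158 (limma adjusted p = 0.746 and 0.739). Leaving out 1 array moved the Cdkn2c values to between 0.0181 (without old MPP3 replicate 3) and 0.224 in old mice, and to between 0.0777 (without young MPP3 replicate 1) and 0.260 in young mice. In the test of whether the age difference itself differed between MPP4 and MPP3, 0 of 6 inhibitors were called, against 0% of genes, and 0 of 6 had an unadjusted p under 0.05, against 6.26%. The interaction of Cdkn1b was 0.241 ± 0.189 (SE, 95% interval -0.174 to 0.655), and that of Cdkn2c -0.00796 ± 0.196 (SE, 95% interval -0.438 to 0.422). The widths of these intervals, with 3 to 5 arrays a group, set what could be seen.

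The genes around the inhibitors were taken in lists by role. No gene of any of the 10 pathway lists was called in either age comparison, and the medians below stand beside medians over all genes of 0.000183 in MPP3 and -0.000171 in MPP4. For the genes named from these lists, the SE of the difference ranged from 0.0278 to 0.159 and the limma adjusted p from 0.361 to 0.688. The 6 inhibitors had 2 higher and 4 lower means in old MPP3 (median difference -0.0282) and 3 higher and 3 lower in old MPP4 (median -0.0112). Their targets, 15 cyclins and CDKs, had 7 higher and 8 lower means in old MPP3 (median -0.0130) and 6 higher and 9 lower in old MPP4 (median -0.0262). Among them Cdk1, the mitotic kinase, averaged 2.11 in old and 1.92 in young MPP4, and Ccna2, the S and G2 phase cyclin A2, 2.57 and 2.26. Cdk2, the kinase held by p27, averaged 1.44 in old and 1.77 in young MPP3, and Mnat1, a subunit of the CDK-activating kinase, 1.89 and 1.67. Of 13 retinoblastoma family and E2F genes, 3 had higher and 10 lower means in old MPP3 (median -0.0907), and 9 higher and 4 lower in old MPP4 (median 0.0266). E2f4 and E2f1 differed by -0.182 and -0.129 in old MPP3. E2f8 and Tfdp1, an atypical E2F and the partner of E2F factors, differed by 0.412 and -0.174 in old MPP4.

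Genes that act on the inhibitors themselves were grouped next. Of 12 genes for turnover of inhibitor proteins, 4 had higher and 8 lower means in old MPP3 (median -0.0317) and 9 higher and 3 lower in old MPP4 (median 0.0326). Skp2, the subunit that recognises p27, averaged 1.07 in old and 0.919 in young MPP4, and Cops5, a signalosome subunit, 2.66 and 2.36. In MPP3, Psme3, a proteasome activator, differed by 0.287, and Rbx1, the RING subunit of cullin ligases, by -0.261. Of 11 Polycomb genes, whose products silence the Cdkn2a locus, 4 had higher and 7 lower means in old MPP3 (median -0.0620), and 8 higher and 3 lower in old MPP4 (median 0.0425). Cbx2 averaged 1.31 in old and 1.60 in young MPP3, Ring1 0.744 and 0.927, and in MPP4 Suz12 differed by 0.270 and Ring1 by -0.126. Beside these values, Cdkn2a itself differed by -0.0156 in MPP3 and -0.0313 in MPP4.

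Of 13 inducers of inhibitor transcription, 2 had higher and 11 lower means in old MPP3 (median -0.157), and 4 higher and 9 lower in old MPP4 (median -0.0528). Kdm6b, the histone H3 lysine 27 demethylase, differed by -0.184 and the TGF-beta receptor gene Tgfbr2 by -0.260 in old MPP3, while Gata2 and Foxo4 differed by -0.0826 and -0.0740 in old MPP4. Of 11 repressors of inhibitor transcription, 3 had higher and 8 lower means in old MPP3 (median -0.0539), and 6 higher and 5 lower in old MPP4 (median 0.010). Hmga2, known in mouse neural stem cells to keep Cdkn2a low, averaged 1.08 in old and 1.51 in young MPP3, and 1.10 in old and 1.30 in young MPP4. Hes1 differed by -0.182 in MPP3 and Id2 by 0.205 in MPP4. Of 16 p53 targets besides Cdkn1a, 9 had higher and 7 lower means in old MPP3 (median 0.00156) and 8 each way in old MPP4 (median -0.00756). Trp53inp1 averaged 1.73 in old and 2.09 in young MPP3, and Plk2 0.421 and 0.679, while in MPP4 Rrm2b differed by 0.184 and Gadd45a by -0.204. The shared probe set, beside them, differed by -0.0278 and 0.0481.

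Genes of the G2 and M phases mostly had higher means in old cells. In old MPP3, 14 of 17 had a higher mean (median difference 0.188) and 3 of 17 had an unadjusted p under 0.05 with a higher mean, against 3.44% of genes. Among the MPP4 arrays, the old mean was higher for 17 of 17 (median 0.272) and 10 of 17 such a p, against 4.5% of genes, none of which passed the adjustment (smallest limma adjusted p = 0.361). Nusap1, a spindle protein gene, averaged 2.68 in old and 2.05 in young MPP4, Aurka 2.11 in old and 1.69 in young MPP3, and Kif11 2.97 and 2.74. The interaction for the list had a median of 0.183, and 0 of 17 genes had an unadjusted limma p under 0.05 there, against 6.26% of genes. Young MPP4 replicate 2, in array set 1 and without Xist, had a list mean of 2.106, beside 2.111 to 2.272 in old MPP4. The other young MPP4 arrays, at 1.76 to 1.91, were in set 2 or had Xist above 1. The young MPP3 arrays also were all in set 2 or had Xist above 1. The part of array set and Xist in these differences was not tested. Of 15 imprinted genes other than Cdkn1c, 8 had higher and 7 lower means in old MPP3 (median 0.00478), and 5 higher and 10 lower in old MPP4 (median -0.0271). Grb10 and Plagl1 differed by -0.187 and 0.0857 in MPP4, and Meg3 and Sgce by -0.133 and -0.399 in MPP3. Of 10 senescence-associated genes other than Cdkn2a, 8 had higher and 2 lower means in old MPP3 (median 0.0227) and 5 each way in old MPP4 (median 0.00273). Glb1, the lysosomal beta-galactosidase, averaged 1.63 in old and 1.31 in young MPP3, and Tnf 0.997 and 0.749, while Tnf and Igfbp3 differed by 0.134 and 0.0590 in MPP4.

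**Figure D4:**
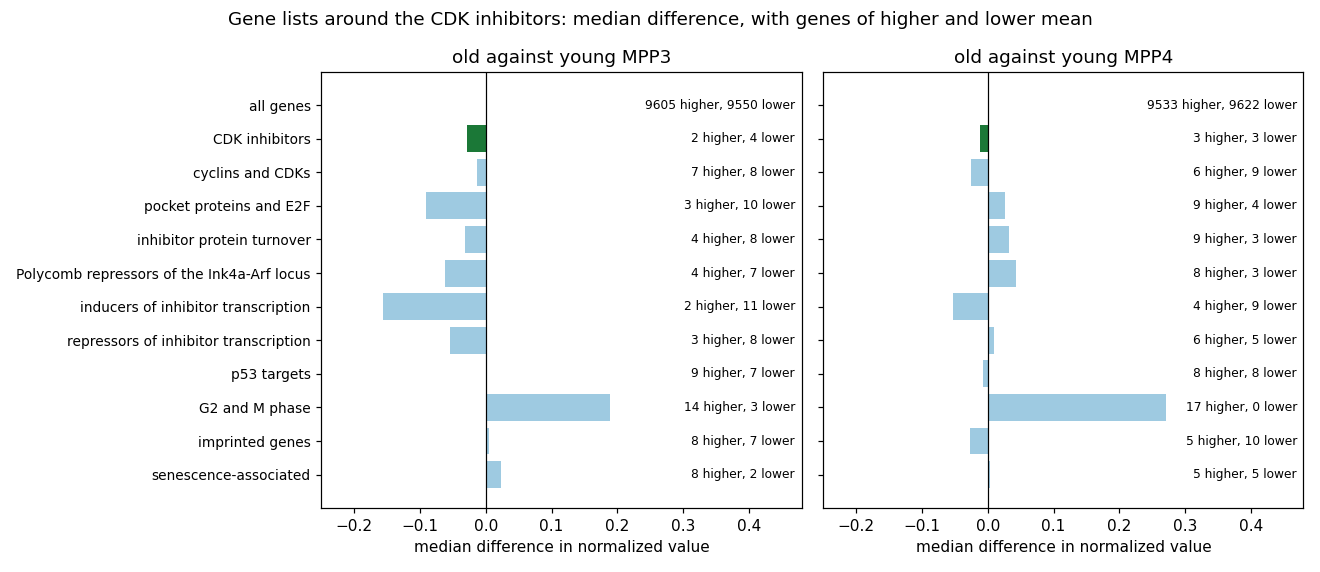
Median difference in normalized value (horizontal axis, rank scale), old minus young, of all genes, the CDK inhibitors and 10 lists of genes around them, in MPP3 and in MPP4, with the number of genes of higher and lower mean at the right. The inhibitors have medians of -0.0282 and -0.0112, and the G2 and M phase list 0.188 and 0.272.

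No cell type marker was called by limma in either age comparison, and the means below are description. In old against young MPP3, an unadjusted limma p under 0.05 was found for 1 of 11 myeloid progenitor and 1 of 7 mast cell and basophil markers. The same held for 2 of 11 mature and 2 of 10 lymphoid progenitor markers, against 8.19% of genes. Myeloid progenitor markers averaged 1.72 to 2.64 on old MPP3 arrays, against 1.37 to 1.86 on young MPP3 arrays, with 10 of 11 genes higher in mean. Mast cell and basophil markers averaged 0.621 to 1.499 on old MPP3 arrays, against 0.497 to 0.792 on young MPP3 arrays, with 7 of 7 higher. Markers of mature lineage-positive cells averaged 0.837 to 1.11 in old MPP3 and 0.650 to 0.805 in young MPP3, with 8 of 11 higher. Lymphoid progenitor markers averaged 1.17 to 1.57 in old MPP3 and 1.46 to 1.65 in young MPP3, with 2 of 10 higher. Erythroid, megakaryocyte and stem cell markers had 3 of 7, 1 of 5 and 4 of 11 higher means in old MPP3. In MPP4, the higher means in old mice were 6 of 11 myeloid, 5 of 7 mast cell and basophil, 6 of 11 mature, 9 of 10 lymphoid, 3 of 7 erythroid and 1 of 5 megakaryocyte markers. The part of any of these in the differences of the inhibitors was not tested.

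The inhibitors did not vary as 1 group across the arrays. Among the pairs of the 6, Pearson's r over the 14 arrays ran from -0.644, between Cdkn1b and Cdkn2a, to 0.366, between Cdkn2a and Cdkn2d. Within the 9 arrays of set 1, Cdkn1b and Cdkn2a were at -0.695, and Cdkn1c and Cdkn2d at 0.718, against -0.389 over all 14. The genes with the most similar pattern differed between members. They were Coq2, Zfp30 and Pias2 for Cdkn1b (r of 0.923, 0.921 and 0.913), Garem1, Urb2 and Tead4 for Cdkn2a (0.875, 0.870 and 0.838), and Tmem234, Mtfp1 and Med25 for Cdkn2b (0.908, 0.851 and 0.831). For Cdkn2c they were Rpap3, Lrrc40 and Asf1a (0.911, 0.878 and 0.857), for Cdkn2d Omt2b, Hnrnpl and Shpk (0.898, 0.885 and 0.885), and for the shared probe set Sgpl1, Trp53i11 and Olfr1054 (0.906, 0.897 and 0.874). Cdkn1c had the most genes with an r above 0.8, 332 of 18043, against 6 for Cdkn2b. Its nearest, Fchsd1, Vmn1r26 and H2-K2 (0.961, 0.958 and 0.947), were at 0.631, 0.484 and 0.635 within set 1. For the genes nearest to the other members r was at least 0.821 there.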

How the data were processed

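Each of the 14 samples was hybridised by the authors to a Mouse Gene ST 1.0 array after linear amplification of RNA from 20000 sorted cells. The deposited values are scores: the authors normalized the arrays by RMA (version not given in the sources used here) and mapped each array onto a standard exponential distribution. Of the deposited scores, 92.3% were whole ranks among 25307 probe sets within 0.01 rank, so they carry ranks. An array has no sequencing depth, and the number of arrays limits the precision.

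Of 22115 probe sets, 19980 had an annotation, 744 of them with several genes and 71 with no RefSeq symbol. Of those 744, only the probe set shared with Cdkn1a was named. For 76 genes with several probe sets the one with the highest mean was kept, leaving 19155 genes. Groups came from the labels. Each comparison was a limma 3.58.1 fit (R 4.3.3, lmFit and eBayes, two-sided, Benjamini-Hochberg over all genes, threshold 0.05) on its groups alone, and the interaction used all 4 groups. The probe set shared with Cdkn1a was fitted with all 19980 annotated probe sets. The fit was tested on simulated data. The methods' SAM test was not run because it splits the samples. Tables were made with Python 3.11.15.

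Named genes were the members, the 2 genes with the largest statistic of each pathway list in each age comparison, the 3 genes most correlated with each member, the gate genes and Xist; Eif2s3y was added after its values were seen. The 10 pathway lists and 8 marker lists were written from general knowledge. The members and lists were chosen with earlier results of these data known. Other settings tried were leaving out the dimmest 33.3% of genes, every probe set in place of 1 a gene, a variance trend with robust shrinkage, array weights, 1 fit of all groups, normal scores, a replicate block, leaving out the arrays with Xist above 1, array set 1 alone and leaving out each array.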

Additional observations from a re-analysis of the deposited data

How the results depend on the processing

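With 3 to 5 arrays a group, these limits bear on every value. Of the 35 differences of the members, 303 values under settings other than leaving out 1 array kept their direction and side of the threshold in 279, turned in 23 and passed the threshold in 1. That 1 was MPP4 minus MPP3 of the probe set shared with Cdkn1a in young mice under array weights, 0.509 with a limma adjusted p of 0.0162, where 1808 genes were called; over all settings of that difference the adjusted p ran from 0.0162 to 0.987. With array weights the age differences in MPP3 turned to 0.00227 for Cdkn1c, 0.00470 for Cdkn2a and 0.00369 for Cdkn2b, MPP4 minus MPP3 to 0.00350 for Cdkn2a and -0.0670 for Cdkn2d in young mice and to -0.0285 for Cdkn2b in old mice, and the interaction of Cdkn2d to 0.0368. Without the arrays with Xist the age differences turned to 0.0352 for Cdkn2a and 0.123 for the shared probe set in MPP3 and to -0.0340 for Cdkn2b in MPP4, MPP4 minus MPP3 of young mice to 0.00407 for Cdkn2a and 0.0227 for Cdkn2b, and the interaction of Cdkn2b to -0.00934. In array set 1 alone they turned to 0.108 for Cdkn1b and -0.0203 for Cdkn2d in MPP3, 0.0465 for Cdkn1b and -0.142 for Cdkn2d in MPP4, 0.281 for Cdkn1b between the young populations, and -0.0614 and 0.0457 for the interactions of Cdkn1b and Cdkn2a. The replicate numbers did not pair the arrays throughout. Correlations of same-numbered deviations ran from -0.148 to 0.407 between the young populations and from -0.0428 to 0.0485 between the old ones. Between ages they ran from -0.192 to 0.255 in MPP3 and from -0.0329 to 0.261 in MPP4. The highest, 0.407, was between replicates 1 of young MPP3 and young MPP4, the arrays with Xist and without Eif2s3y. Whether these arrays share a source was not tested. With the replicate number as a block, the age differences in MPP4 turned to -0.00832 for Cdkn2b and -0.0741 for Cdkn2d and the interaction of Cdkn2c to 0.00906, no call of a member changed, and 0 genes were called between the young populations. The cause of these turns was not tested.

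The count of genes called over all genes was 0, 0 and 0 for the age comparisons and the populations of old mice, 25 for the populations of young mice and 0 for the interaction. It became 304 with array weights and 1 with 1 fit of all groups in old against young MPP4, and 9 with 1 fit in MPP3. Between the old populations it became 1 without dim genes, 27 with 1 fit and 2 with normal scores. Between the young populations it became 59 without dim genes, 42 with every probe set, 48 with a variance trend, 1808 with array weights, 51 with normal scores, and 0 without the arrays with Xist, in array set 1 alone and with the block. For the interaction it became 2 with a variance trend and 574 with array weights. Leaving out each array in turn, it ranged over 0 to 0 in MPP3, 0 to 15 in MPP4 (15 without young replicate 2), 8 to 108 between the young populations (108 without young MPP3 replicate 1), 0 to 3 between the old populations and 0 to 10 for the interaction. No member was called without any 1 array, and 15 of the 35 differences turned in at least 1 such fit. Their ranges for age in MPP3 were -0.0511 to 0.0352 (Cdkn2a), -0.0869 to 0.0275 (Cdkn2b), -0.0135 to 0.0769 (Cdkn2d) and -0.126 to 0.123 (shared probe set), and in MPP4 -0.0306 to 0.0840 (Cdkn2d) and -0.00349 to 0.106 (shared probe set). For MPP4 minus MPP3 they were -0.221 to 0.140 (Cdkn1b), -0.0661 to 0.0202 (Cdkn2a) and -0.0661 to 0.0485 (Cdkn2d) in young mice, and -0.0568 to 0.0438 (Cdkn1c) and -0.0550 to 0.0595 (Cdkn2b) in old mice. For the interaction they were -0.0664 to 0.0198 (Cdkn2a), -0.140 to 0.0727 (Cdkn2c), -0.0751 to 0.0395 (Cdkn2d) and -0.0753 to 0.175 (shared probe set). Differences that kept their sign without each array also moved by over 1.5 times, as for age in Cdkn1b in MPP3 (-0.494 to -0.132) and for MPP4 minus MPP3 of Cdkn2c in old (0.0181 to 0.224; 0.0263 with array weights) and young mice (0.0777 to 0.260). Without any 1 array, the differences between the old populations were 0.187 to 0.249 for Cdkn1b and 0.393 to 0.535 for the shared probe set. Those groups did not overlap, so leaving out 1 array could not turn the sign. The shared probe set between the young populations ranged over 0.289 to 0.539, and was 0.0971 within array set 1. Cdkn1c in old against young MPP4 ranged over -0.472 to -0.298, and was -0.0845 within array set 1.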
